A study of Rattus norvegicus with 8 samples.

Results

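The genes of oxidative phosphorylation were read from rat brain on 8 short-oligonucleotide arrays, and they comprised 56 genes with 102 probe sets out of 4736 genes and 8740 probe sets that were not controls. A probe set is the group of short probes on the array that reads 1 transcript, and some genes have several. Members were all probe sets with a single gene symbol in the platform's annotation that began with Nduf, Sdh, Uqcr, Cox or Atp5, or that was Cyc1 or Cycs. By the complex that the symbol names, complex I (NADH dehydrogenase) had 27 genes and 49 probe sets and complex II (succinate dehydrogenase) had 2 genes and 2 probe sets. Complex III (cytochrome bc1) had 4 genes and 7 probe sets, complex IV (cytochrome c oxidase) had 13 genes and 27 probe sets, and complex V (ATP synthase) had 10 genes and 17 probe sets. A further 7 probe sets were left out because the annotation ties each to several symbols. These included those for cytochrome c, for Cox7a2 and for the ATP synthase c subunit genes Atp5mc1 and Atp5mc2, so cytochrome c has no member here. The rest were tied to Ndufb4, Ndufs5 and Cox5a, each with a further symbol. Subunits that the mitochondrial DNA itself encodes were not analysed here.

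Each sample was total RNA from the whole brain of an intubated rat, on 1 array. The 3 control samples were taken after 3 min of isoflurane, a volatile anaesthetic that is inhaled, at a concentration that the labels do not give. The 1 hr group held 2 samples and the 2 hr group held 3 samples, each from rats given 2% isoflurane for the time that names the group. A cold saline perfusion is recorded for the control group only, so perfusion as labelled and exposure cannot be told apart. The labels give no strain, sex or age, and none of the rats was free of isoflurane or of intubation. No animal numbers are given, so the p-values measure the spread between these samples, which may be technical. In whole tissue, fewer cells of a type and less RNA per cell cannot be told apart.

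Oxidative phosphorylation is the step by which mitochondria turn food energy into ATP. Complexes I and II pass electrons through a quinone to complex III, cytochrome c carries them to complex IV, which hands them to oxygen, and the protons pumped on the way drive ATP synthesis in complex V. Most subunits are encoded in the nucleus and imported. Neurons depend heavily on this pathway to keep their ion gradients, and volatile anaesthetics are known to slow electron transfer at complex I.

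Nuclear genes of this pathway are known to use the transcription factors NRF1 and GABP, the latter an ETS family protein. RefSeq promoter sequences (assembly GRCr8, 250 bases before to 50 after the start) were matched by gene number for 47 of the 56 genes. The 250 bases before the start are shown for 3 genes whose values across the arrays are described below, with 5′ to 3′ on the gene's strand and matches to the ETS core CCGGAAG or the NRF1 core GCATGCGC in capitals on either strand. Cox8a lies at chr1:213833624-213833873, Ndufa6 at chr7:115750318-115750567 and Atp5po at chr11:44657484-44657733, all on the minus strand.
Cox8a: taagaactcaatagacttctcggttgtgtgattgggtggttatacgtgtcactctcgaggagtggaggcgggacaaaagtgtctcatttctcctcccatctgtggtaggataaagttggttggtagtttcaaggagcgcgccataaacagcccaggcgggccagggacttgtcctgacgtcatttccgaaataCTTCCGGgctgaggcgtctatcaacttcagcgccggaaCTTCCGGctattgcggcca
Ndufa6: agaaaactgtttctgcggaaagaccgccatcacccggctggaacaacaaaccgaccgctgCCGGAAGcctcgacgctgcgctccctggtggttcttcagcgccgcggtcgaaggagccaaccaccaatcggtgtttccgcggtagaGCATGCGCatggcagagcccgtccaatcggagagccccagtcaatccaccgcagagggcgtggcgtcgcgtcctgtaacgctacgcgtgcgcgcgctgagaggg
Atp5po: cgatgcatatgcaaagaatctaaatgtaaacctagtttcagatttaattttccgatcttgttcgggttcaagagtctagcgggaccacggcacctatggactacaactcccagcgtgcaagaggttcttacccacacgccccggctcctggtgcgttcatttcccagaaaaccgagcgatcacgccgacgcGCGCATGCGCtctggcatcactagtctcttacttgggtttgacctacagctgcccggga
The ETS core, searched on both strands over the whole 300-base window, was present in 10 of the 47 promoters (21.3%), against 12.3% of the 3871 promoters of genes on the array and 9.22% of all 27457 in the table. Those 10 were Atp5f1a, Atp5pf, Cox4i1, Cox5b, Cox8a, Ndufa6, Ndufs1, Ndufs8, Sdhaf2 and Uqcrc2. The exact NRF1 core was present in Ndufa6 and Atp5po only, 4.26% of the 47 against 3.25% and 2.66%. In Atp5po the capital run holds the core on both strands, overlapping. A TATAAA run was found in Cox8b and Ndufs6, 4.26% of the 47 against 11.3% and 14.3%. The median GC content was 56% for the members, 60% for genes on the array and 52.3% for all promoters. A match is a description of the letters and was not tested as a site.

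Of the 102 probe sets, 100 were above the floor, an intensity of 9.1 that marks the 20th percentile, on at least 2 arrays and were tested, and 96 of these were above it on all 8 arrays. The 2 that were not tested were a second probe set of Ndufab1 (rc_AA891651_at), at the floor on all arrays, and 1 of the 3 for Cox6a2 (X72758mRNA_at), above the floor on 1 array. Every gene kept at least 1 tested probe set. The 2% trimmed mean of the arrays lay between 150.17 and 150.32, so the arrays had been brought to 1 scale before deposit. Their highest single intensity still ranged from 3504 to 37712. It was highest on 2 hr replicate 3, control replicate 3 (24393) and 1 hr replicate 1 (23009), and the brightest probe set of each array was no member. The marker list for neurons (11 genes) averaged 7.54 to 9.02 on the log2 scale over the arrays and that for heart or skeletal muscle (14 genes) 5.12 to 5.68, against a floor of 3.19.

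No oxidative phosphorylation gene passed the test in any comparison. With limma and Benjamini-Hochberg adjustment over 7770 probe sets, 0 of 100 members had an adjusted p under 0.05 at 2 hr against control, at 1 hr against control, for any exposure against control, or at 2 hr against 1 hr. The same held for all probe sets (0% in each of the 4 comparisons). At an unadjusted p under 0.05 the members numbered 0 at 2 hr against control, where 1.79% of all probe sets were past it. They numbered 1 at 1 hr against control (all probe sets 2.68%) and 2 at 2 hr against 1 hr (2.77%). Both comparisons with control share the same 3 control samples.

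The log2 differences of the members were small on balance and had both signs. At 2 hr against control 46 members were higher and 54 lower, with a median of -0.07, while the median over all probe sets was 0.02 and 47.7% of them were lower. At 1 hr against control 37 were higher and 63 lower, with a median of -0.08 against 0.05 over all probe sets, of which 44.2% were lower. At 2 hr against 1 hr 49 were higher and 51 lower, with a median of -0.00 against -0.03. By complex at 2 hr against control the medians were 0.02 for complex I, 0.00 for II, -0.14 for III, -0.11 for IV and -0.11 for V. At 1 hr against control they were -0.11, 0.18, -0.02, -0.08 and -0.04 in the same order. The precision was limited: the 95% interval of the difference at 2 hr against control lay within a 2-fold change either way for 22 of the 100 members, so the samples allow a 2-fold difference for the others.

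**Figure D1:**
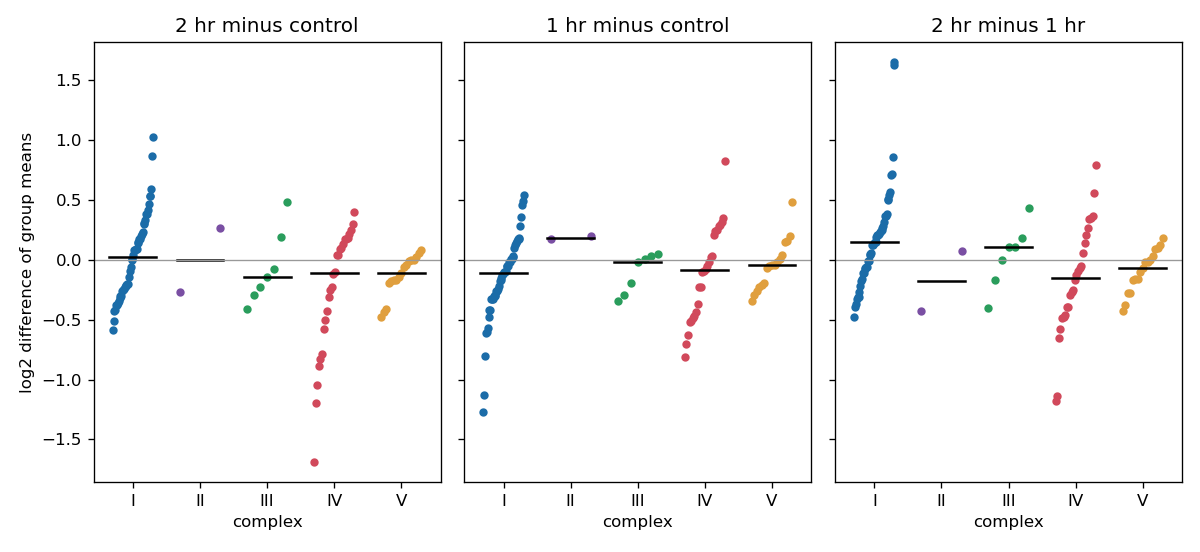
Log2 difference of group means for each member probe set (points, sorted within each complex) in 3 comparisons, with the median of each complex as a bar. The points lie on both sides of 0 in complexes I, III, IV and V, and the lowest points at 2 hr against control belong to complex IV, down to -1.69.

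The counts of members whose groups did not overlap stood near or below the share over all probe sets, and no difference from that share was tested. At 2 hr, 3 of 100 members lay above every control sample (all probe sets 3.11%) and 2 below every control sample (2.84%). At 1 hr, 4 lay above (8.02%) and 2 below (5.5%). Against the 1 hr samples, 5 lay above at 2 hr (6.34%) and 2 below (8.37%). The genes in these counts are named with their complexes below.

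In complex I, which takes electrons from NADH, 26 of 48 tested probe sets were higher and 22 lower at 2 hr against control, from -0.59 to 1.03 on the log2 scale. Ndufb6, an accessory subunit of the membrane arm, had the lowest difference at 1 hr among the brightest probe sets of each gene. Its probe set rc_AA900199_s_at read 964, 1257 and 798 in the controls, 529 and 385 at 1 hr, and 1171, 491 and 490 at 2 hr. Both 1 hr samples lay below every control, and so did 2 of the 3 samples at 2 hr. The log2 difference was -1.13 ± 0.433 (SE, n = 2 and 3) at 1 hr against control, with an unadjusted p = 0.0266 and an adjusted p = 1 (limma), and -0.59 ± 0.387 at 2 hr (n = 3 and 3). The second probe set of Ndufb6 (rc_AI104528_at) read 351 to 551 in the controls, 288 and 446 at 1 hr and 373 to 409 at 2 hr. There the groups overlapped, with log2 differences of -0.24 and -0.09.

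Ndufa4l2 had 5 probe sets, most of them of the kind that Affymetrix marks as reading a family of similar sequences. It is a relative of Ndufa4 that is known to be induced by low oxygen, and Ndufa4 itself is now placed with complex IV. The brightest of the 5 (AA684929_f_at) read 112, 139 and 179.8 in the controls, 174 and 168 at 1 hr, and 181.0, 215 and 217 at 2 hr. All 3 samples at 2 hr lay above every other sample, though the lowest of them and the highest control nearly met. The log2 difference was 0.53 ± 0.263 at 2 hr against control (unadjusted p = 0.0729, adjusted p = 1, limma), which was the smallest p of any member in that comparison. All 5 differed in the same direction at 2 hr, by 0.09 to 1.03, but at 1 hr 2 were higher and 3 lower. Of the 2 members past an unadjusted p of 0.05 at 2 hr against 1 hr, both were Ndufa4l2 probe sets. AA686870_f_at read 16.3 and 28.9 at 1 hr and 53.7, 106.5 and 52.9 at 2 hr, a log2 difference of 1.63 ± 0.701 (unadjusted p = 0.0436, adjusted p = 1, limma). AA684960_f_at read 15.3 and 127.5 at 1 hr and 127.4, 176.6 and 118.5 at 2 hr, a difference of 1.65 ± 0.723 (unadjusted p = 0.0466, adjusted p = 1, limma). There the first of the 1 hr samples alone was low.

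Ndufb1 and Ndufb10, both accessory subunits of complex I, had differences of opposite sign. Ndufb1 read 348, 328 and 527 in the controls, 541 and 236 at 1 hr, and 410, 486 and 1025 at 2 hr, a difference of 0.59 ± 0.430 at 2 hr with 1 sample far above the rest. Ndufb10 read 748, 542 and 938 in the controls, 667 and 680 at 1 hr, and 402, 530 and 753 at 2 hr, a difference of -0.42 ± 0.321. The groups overlapped for both genes. Ndufb9 read 1455, 1656 and 1452 in the controls, 2564 and 1894 at 1 hr, and 1999, 1302 and 4011 at 2 hr. Both 1 hr samples lay above every control (log2 difference 0.54 ± 0.502, adjusted p = 1, limma), whereas the samples at 2 hr lay on both sides of them.

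Ndufs4, an accessory subunit whose loss in mice is known to heighten sensitivity to volatile anaesthetics, had 3 probe sets. The brightest (rc_AI013297_g_at) read 300.1, 365 and 807 in the controls, 371 and 229 at 1 hr, and 392, 377 and 323 at 2 hr. Its differences were -0.61 ± 0.426 at 1 hr and -0.30 ± 0.381 at 2 hr, and control replicate 3 stood well above the other samples. Ndufb5 showed a like order, with 593, 677 and 1506 in the controls, 660 and 490 at 1 hr and 639, 891 and 704 at 2 hr (-0.57 ± 0.424 at 1 hr and -0.20 ± 0.379 at 2 hr). The groups overlapped for both genes.

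Of the core subunits of complex I that carry iron-sulphur clusters, Ndufs7, Ndufv2 and Ndufs8 were lower at 2 hr than in the controls on their brightest probe sets. Ndufs1 was higher on a dim one, and the groups overlapped for each. Ndufs7 read 1199, 888 and 979 in the controls, 916 and 1050.0 at 1 hr, and 590, 928 and 866 at 2 hr (log2 difference -0.38 ± 0.295 at 2 hr and -0.33 ± 0.330 at 2 hr against 1 hr). Ndufv2 differed by -0.21 ± 0.404 at 2 hr and Ndufs1, at 21.8 to 59.8 over the arrays, by 0.30 ± 0.528. The 4 probe sets of Ndufs8 ranged from -0.32 to 0.04 at 2 hr, and the dim one among them (rc_AA799479_at, 15.6 to 67.6 in the controls) lay above both 1 hr samples in all 3 samples at 2 hr. Ndufab1, the mitochondrial acyl carrier protein, differed by 0.87 ± 0.442 at 2 hr on AA799336_at (165, 264 and 75.0 in the controls, 334, 260.2 and 228 at 2 hr) but by 0.17 ± 0.323 on its brightest probe set. Ndufb8, the brightest complex I gene, read 3004, 2446 and 7830 in the controls, 4701 and 4013 at 1 hr, and 2375, 2387 and 6407 at 2 hr, so the spread within each of the control and 2 hr groups exceeded the difference of -0.22 ± 0.621. The assembly factor Ndufaf3 had 3 probe sets with differences of -0.34, -0.30 and 0.00 at 2 hr.

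Complex II, which oxidises succinate and is also an enzyme of the tricarboxylic acid cycle, had 2 measured genes. Sdha, the flavoprotein subunit, read 385.8, 339 and 303 in the controls, 322 and 476 at 1 hr, and 398, 449 and 385.9 at 2 hr. All 3 samples at 2 hr lay above the controls, the lowest of them only just, and the log2 difference was 0.27 ± 0.251 (adjusted p = 1, limma). Sdhaf2, the factor that helps Sdha bind its flavin, read 180, 188 and 199 in the controls, 223 and 202 at 1 hr, and 188, 173 and 119 at 2 hr. The 1 hr samples lay above all 6 others, by a log2 difference of 0.17 ± 0.291 over the controls, and the samples at 2 hr lay below both of them (-0.43 ± 0.291). Within-group spread was smallest in this complex, with a median SD of 0.23 on the log2 scale against 0.58 for all members.

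Complex III hands electrons to cytochrome c. Cyc1, the cytochrome c1 subunit, read 1283, 1212 and 840 in the controls, 934 and 1367 at 1 hr, and 1310, 1583 and 1693 at 2 hr. The samples at 2 hr lay above every control, the log2 difference was 0.48 ± 0.324 (95% interval -0.25 to 1.20, adjusted p = 1, limma), and without control replicate 3, the lowest sample, it was 0.29. The other genes of the complex did not share this order. The brightest probe set of Uqcrfs1, the Rieske iron-sulphur protein (M24542cds_g_at), read 2044, 2313 and 1932 in the controls, 1663 and 1765 at 1 hr, and 1954, 1692 and 1515 at 2 hr. Both 1 hr samples lay below the controls, with log2 differences of -0.29 ± 0.362 at 1 hr and -0.29 ± 0.324 at 2 hr, but its probe set rc_AI103911_at differed by 0.01 and 0.19. Uqcrc2, a core protein, read 456, 616 and 266 in the controls and 776, 227 and 316 at 2 hr (-0.14 ± 0.465). Uqcr11, a small subunit and the brightest of the complex, read 2772, 2975 and 8566 in the controls, 4262 and 3906 at 1 hr and 3053, 1783 and 5479 at 2 hr (-0.41 ± 0.618).

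**Figure D2:**
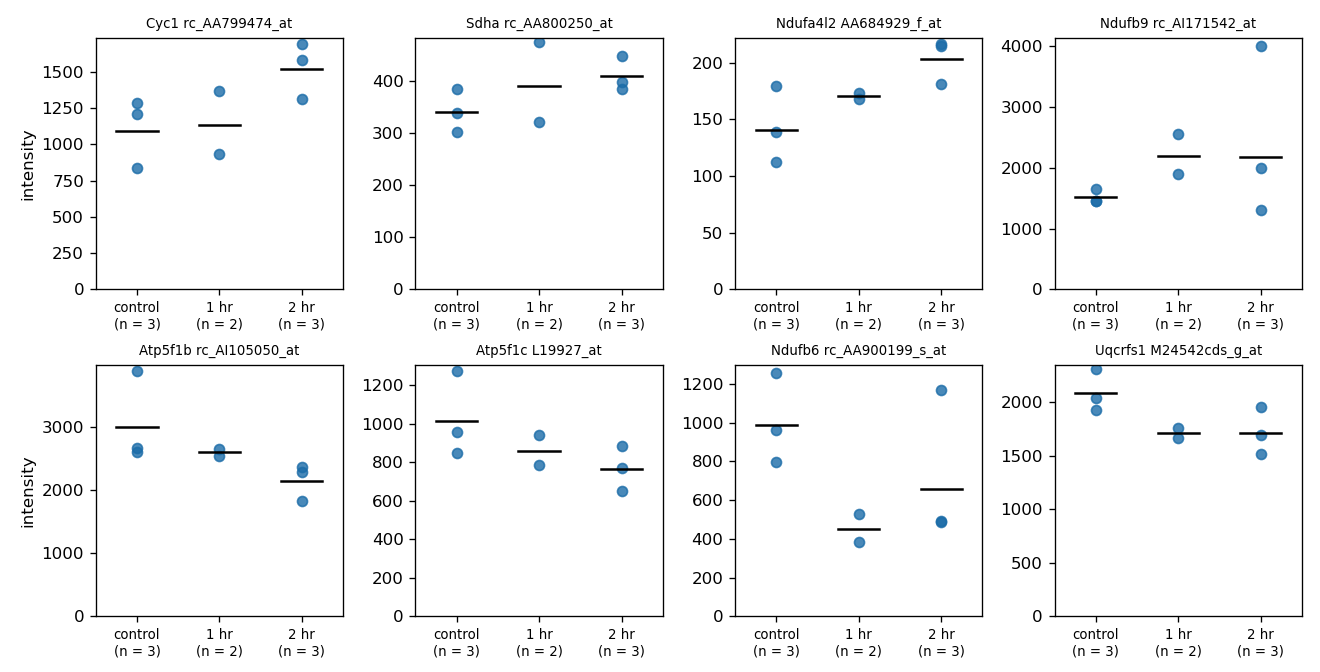
Deposited intensity (linear axis from 0) of 8 member probe sets in each control, 1 hr and 2 hr sample. Bars show the mean of the log2 values of each group, turned back to intensity. The 2 hr samples of Cyc1, Sdha and Ndufa4l2 lie above the controls and those of Atp5f1b below, and for Ndufb9, Ndufb6 and Uqcrfs1 the 1 hr samples lie outside the control range.

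Complex IV held the members with the widest spread, with a median within-group SD of 0.69 on the log2 scale. At 2 hr against control 12 of its 26 tested probe sets were higher and 14 lower, from -1.69 to 0.40. The 4 lowest differences came from bright probe sets of Cox8a and Cox4i1, subunits that most tissues use, and the brightest of Cox6a1 was low as well. Cox8a rc_AI102505_g_at read 7001, 6397 and 10769 in the controls, 7961 and 3811 at 1 hr, and 5990.1, 233 and 10379 at 2 hr. The second sample at 2 hr lay far below the rest, and the log2 difference of -1.69 ± 1.220 had a 95% interval from -4.42 to 1.05. The brightest Cox8a probe set (M28255_s_at) read 6742, 5951 and 9652 in the controls, 8689 and 3204 at 1 hr, and 5262, 999 and 8371 at 2 hr, and without 2 hr replicate 2 its difference went from -1.05 to -0.14. Cox8a rc_AI102505_at also fell on 2 hr replicate 2, with 3593, 892 and 3642 at 2 hr against 3351 to 6090 in the controls (-0.89 ± 0.625). The dimmest Cox8a probe set (L48209_s_at) read 2047, 1662 and 3217 at 2 hr against 2492 to 5609 in the controls. There the same sample was again the lowest, but it was not set far apart.

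Cox4i1 and Cox6a1 repeated this pattern. Cox4i1 rc_AA818226_s_at read 9585, 7475 and 15167 in the controls, 11495 and 3008 at 1 hr, and 7336, 672 and 18196 at 2 hr, whereas its probe set X54081mRNA_i_at read 1689, 2312 and 4260 at 2 hr, with the second sample between the others. Cox6a1 rc_AI104520_s_at read 7198, 5780 and 16176 in the controls, 11492 and 2522 at 1 hr, and 5363, 1443 and 16850 at 2 hr, whereas its probe set X72757_g_at read 2823, 2306 and 6653 at 2 hr. The differences at 2 hr against control were -1.20 ± 1.140 and -0.79 ± 0.989 for the first probe set named of each gene and 0.09 ± 0.544 and 0.13 ± 0.615 for these. The remaining probe set of Cox4i1 (J05425cds_s_at) read 4179, 1412 and 9997 at 2 hr, lowest again on the second sample (-0.43 ± 0.768), and that of Cox6a1 (X72757_at) read 83.8, 133 and 153 (-0.10 ± 0.477). On the first probe set named of each gene, 1 hr replicate 2 read lowest after 2 hr replicate 2. Its top intensity (5081) was also the lowest after that of 2 hr replicate 2. Without 2 hr replicate 2, the array of lowest top intensity (3504), the first probe sets gave 0.17 and 0.12. Over all probe sets with a mean log2 intensity of 11 or more, that array was the lowest of the 8 for 10 of 20 members (50%) and for 55.9% of the other probe sets. The part of that array in the complex IV differences beyond these values was not tested.

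**Figure D3:**
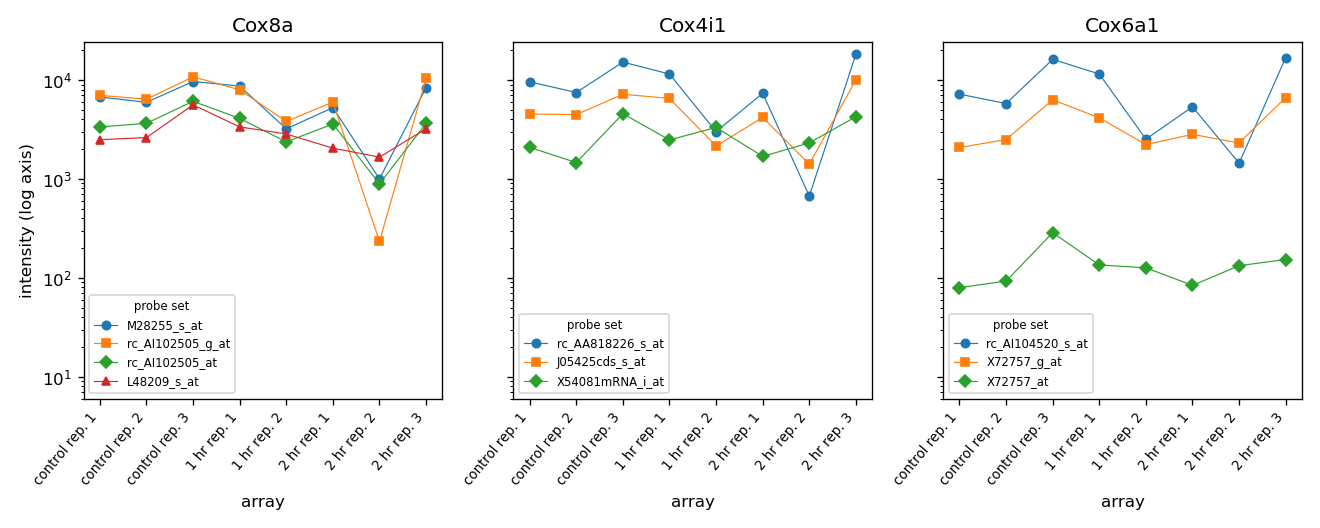
Deposited intensity (log axis) of each probe set of Cox8a, Cox4i1 and Cox6a1 on the 8 arrays, with lines joining the readings of 1 probe set. The readings on 2 hr replicate 2 fall to 233 (rc_AI102505_g_at), 892 (rc_AI102505_at) and 999 (M28255_s_at) for Cox8a. They fall to 672 (rc_AA818226_s_at) for Cox4i1 and to 1443 (rc_AI104520_s_at) for Cox6a1, while the dimmest probe set of each gene does not fall in the same way.

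The isoforms known from heart, skeletal muscle or lung had other orders of the samples. Cox4i2, the isoform tied to low oxygen, read 205, 343 and 111 in the controls, 202 and 201 at 1 hr, and 257, 259 and 268 at 2 hr, above both 1 hr samples and within the control range (0.40 ± 0.373 at 2 hr against control). Cox6a2 rc_AI171644_s_at, the muscle form of Cox6a1, read 345, 309 and 211 in the controls, 351 and 370 at 1 hr, and 248, 400.2 and 280 at 2 hr. Both 1 hr samples lay above the controls, with a difference of 0.35 ± 0.322. Cox8b, the muscle form of Cox8a, was dim: U40836mRNA_s_at read 61.7, 39.4 and 31.9 in the controls, 76.2 and 35.1 at 1 hr, and 41.3, 68.2 and 21.6 at 2 hr. Its probe set X64827cds_s_at read 12.1, 14.7 and 12.6 in the controls and 28.0 and 19.2 at 1 hr, 0.83 ± 0.421 higher and close to the floor of 9.1. None of these passed the test (adjusted p = 1 each, limma).

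Of the remaining complex IV genes, Cox7a2l, known as a factor that joins complexes III and IV, read 836, 623 and 1879 in the controls, 794 and 521 at 1 hr, and 854, 1144 and 1414 at 2 hr. The samples at 2 hr lay above both 1 hr samples (0.79 ± 0.485), not above the controls (0.17 ± 0.434). Its other probe set differed by 0.27 at 2 hr against 1 hr. Cox6b1 differed by -0.31 ± 0.547 and -0.50 ± 0.401 at 2 hr on its 2 probe sets, with the brighter at 2682, 2375 and 4555 in the controls, 3627 and 2549 at 1 hr, and 1566, 1913 and 5135 at 2 hr. Cox5b gave -0.23 ± 0.492 and 0.30 ± 0.387 on its 2 probe sets, Cox7b gave 0.25 ± 0.599, and Cox5a, read on a dim probe set (39.4 to 66.8 over the arrays), gave 0.17 ± 0.378. Another probe set tied to Cox5a was left out because it has several symbols. Cox6c M27467_at read 20.9, 21.4 and 19.8 in the controls and 13.6, 8.9 and 12.8 at 2 hr, all below the controls, with a difference of -0.83 ± 0.497. It lay near the floor, and the brighter probe set of the gene (M27466_at) read 192, 237 and 563 in the controls and 242, 220.1 and 525 at 2 hr (0.04 ± 0.492). Cox6c-ps1, a pseudogene named by its symbol, differed by -0.25 ± 0.543.

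Complex V makes ATP. At 2 hr against control 12 of its 17 probe sets were lower and 5 higher, within a range of -0.48 to 0.08. Atp5f1b, the catalytic beta subunit, read 2597, 2668 and 3885 in the controls, 2650.2 and 2546 at 1 hr, and 2370, 1824 and 2281 at 2 hr. The samples at 2 hr lay below all 5 others, the log2 difference against control was -0.48 ± 0.384 (95% interval -1.34 to 0.38, adjusted p = 1, limma), and the array of lowest top intensity gave the lowest value. Atp5f1c, the gamma subunit of the rotor, read 957, 849 and 1276 in the controls, 787 and 941 at 1 hr, and 883, 769 and 653 at 2 hr, a difference of -0.41 ± 0.286 with overlapping groups. Atp5f1a, the alpha subunit, differed by 0.00 ± 0.287 (95% interval -0.64 to 0.65).

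The stalk and regulatory subunits of complex V differed by less than their errors. Atp5po, the subunit that ties the catalytic head to the stator and the brightest of the complex, read 2547, 1823 and 6297 in the controls, 4164 and 2801 at 1 hr, and 1798, 2757 and 4451 at 2 hr (-0.14 ± 0.581). Atp5f1e, the epsilon subunit, read 1580, 1618 and 5529 in the controls, 3593 and 2030.3 at 1 hr, and 1665, 1764 and 4838 at 2 hr (0.00 ± 0.632). Both the controls and the samples at 2 hr thus held 1 high sample and a pair of low ones, and the high ones were control replicate 3 and 2 hr replicate 3. The other probe set of Atp5po (D13127_at) differed by -0.44 ± 0.464 at 2 hr against control. At 1 hr it differed by -0.34 ± 0.519, whereas the brightest (D13127_g_at) differed by 0.15 ± 0.649. Atp5if1, the inhibitor of ATP hydrolysis, gave -0.19 to 0.06 on its 4 probe sets, with its brightest (D13122_f_at) at 856, 501 and 1910.0 in the controls, 1436 and 593 at 1 hr, and 678, 552 and 1520.0 at 2 hr. Atp5f1d gave -0.01 and 0.02, Atp5pb -0.06, Atp5pd 0.08, and Atp5pf -0.17 and -0.11.

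Probe sets of 1 gene did not always share a sign. Of the 28 genes with several probe sets, 15 had 1 sign throughout at 2 hr against control and 13 had both signs. At 1 hr against control the numbers were 14 and 14. Differences near 0 were counted too, such as -0.01 and 0.02 for Atp5f1d at 2 hr. The share among other genes with several probe sets was not counted, so these numbers do not show a trait of the members. The genes with both signs at 2 hr included Cox4i1, Cox5b, Cox6a1, Cox6c, Ndufb8, Ndufs8, Ndufb11, Uqcrfs1, Atp5f1d and Atp5if1. Ndufb11, an accessory subunit, read 389, 280.2 and 1129 in the controls and 482, 594 and 697 at 2 hr on its brighter probe set (0.23 ± 0.465) and lay near the floor on the other (-0.51 ± 0.392).

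Many of these genes were high or low together on the same arrays within each group. The 3 arrays of highest top intensity (control replicate 3, 1 hr replicate 1 and 2 hr replicate 3, 1 in each group) all lay above the other 5 for 40 of 100 members, where 8.37% of all probe sets did so. They all lay below the other 5 for 2 members (7.07% of all probe sets), Uqcrfs1 M24542cds_at and Ndufa4l2 AA685376_f_at. By complex the first count was 16 of 48 for I, 0 of 2 for II, 2 of 7 for III, 13 of 26 for IV and 9 of 17 for V, and it touched 26 of the 56 genes. Control replicate 3 was the highest of the 8 arrays for 52 of the 100 members. The same count was not made over all probe sets, so it does not show a trait of the members. The mean log2 intensity of the tested members was 8.76, 8.64 and 9.30 in the controls, 8.97 and 8.60 at 1 hr, and 8.72, 8.62 and 9.12 at 2 hr. The 3 high arrays thus gave the 3 highest means, with 1 of them in each group. Ndufa6 read 689, 533 and 1897 in the controls, 1184 and 435 at 1 hr, and 811, 910 and 1422 at 2 hr, an example of this order, which the Cox8a probe set L48209_s_at and Atp5po D13127_g_at shared. Of the 10 genes with an ETS core 5 had a probe set of this order, and of the 37 with a promoter and no ETS core 16 had one.

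The share of probe sets with this array pattern was highest among the bright ones, for members and for the others. Among those with a mean log2 intensity of 11 or more, 17 of 20 members (85%) and 47.5% of the other probe sets had the 3 arrays above the other 5. From 9 to 11 the shares were 40% and 12.2%, from 7 to 9 they were 19.2% and 4.61%, and under 7 they were 21.1% and 7.21%. The 3 arrays were picked by their highest single intensity, and that choice may by itself raise the shares among bright probe sets. The ribosomal protein list (45 genes, 1 of them a ribosomal protein kinase) had mean log2 intensities of 9.63, 9.43 and 10.86 in the controls, 10.42 and 9.71 at 1 hr, and 9.50, 9.45 and 10.64 at 2 hr. The neuron list had 8.68, 8.89 and 7.54 in the controls, 8.43 and 8.63 at 1 hr, and 9.02, 8.27 and 8.40 at 2 hr. Control replicate 3 was thus the highest array for the ribosomal list and the lowest for the neuron list. The low was not particular to neurons. That array was also the lowest for the lists of astrocytes (8.56), oligodendrocytes (9.53), microglia (6.22) and meninges (7.29). The same held for pyruvate dehydrogenase and the tricarboxylic acid cycle (7.26). It was the highest for the lists of blood (6.17) and of heart or skeletal muscle (5.68). The part of tissue makeup, RNA quality or array brightness in the members' levels was not tested.

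**Figure D4:**
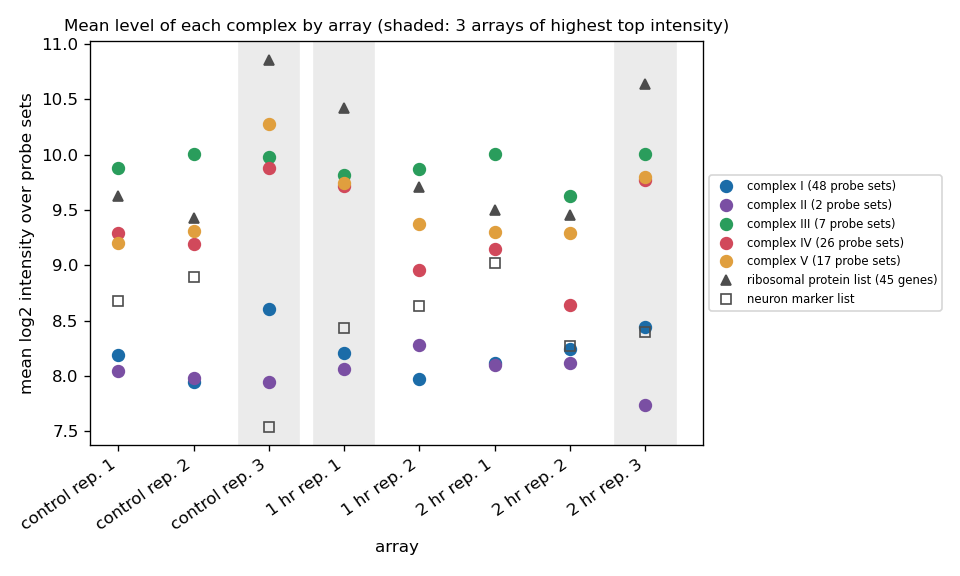
Mean log2 intensity of the tested probe sets of each complex, of the ribosomal protein list and of the neuron marker list on each of the 8 arrays, with the 3 arrays of highest top intensity shaded. Complexes IV and V and the ribosomal list are high on the shaded arrays in all 3 groups, and the neuron list is lowest on control replicate 3.

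**Figure D5:**
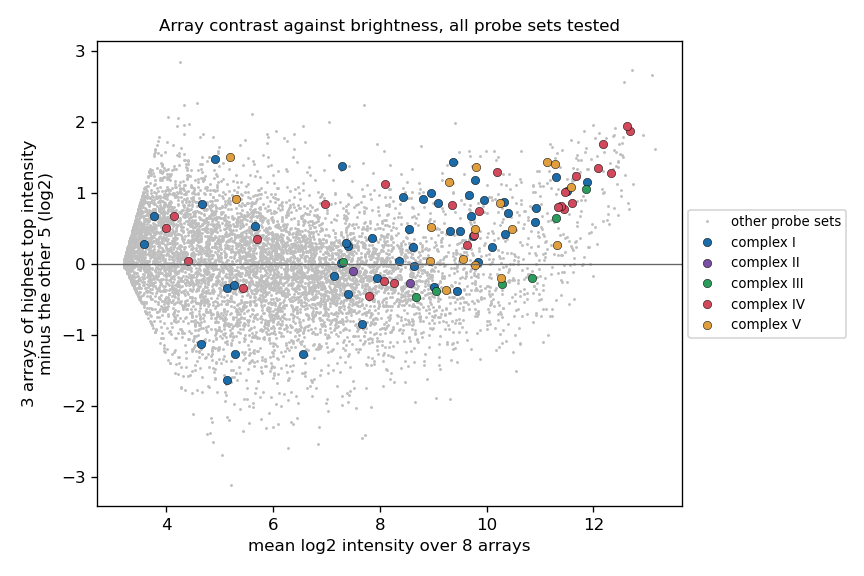
Log2 difference between the mean of the 3 arrays of highest top intensity and the mean of the other 5, against mean log2 intensity, for all 7770 probe sets tested (grey) and for the members by complex (colours). The members have a median of 0.50 and all probe sets a median of 0.02, and among the members the bright ones of complex IV lie highest on both axes.

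Within these array classes the comparison with control gave different medians. Between the high arrays, 1 against 1, the median difference of the members was -0.31 at 2 hr against control (32 higher, 68 lower), with -0.05 over all probe sets. At 1 hr it was -0.39 (30 higher, 70 lower), with 0.12 over all probe sets. Among the other arrays it was 0.03 at 2 hr (55 higher, 45 lower, 2 against 2), with 0.05 over all probe sets. By complex the medians there were 0.14 for I, 0.10 for II, -0.17 for III, -0.02 for IV and 0.01 for V. At 1 hr the median of the members was -0.03 among these arrays (1 against 2), with 0.00 over all probe sets. Each of these medians of the members lay below that of all probe sets, by amounts that differed between the array classes. The reading of the 5S ribosomal RNA control also split the arrays, with 12.9 to 23.7 on control replicates 1 and 2 and 2 hr replicate 1 and 70.4 to 141.7 on the rest. Among arrays of low reading the median was 0.04 at 2 hr (1 against 2), with 0.01 over all probe sets. Among the rest it was -0.57 at 2 hr (25 higher, 75 lower, 2 against 1) and -0.68 at 1 hr (26 higher, 74 lower, 2 against 1), with -0.01 and 0.03 over all probe sets. The ribosomal list had medians of -0.86 and -0.93 in these last comparisons, which rest on control replicate 3 as their only control.

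Other genes of mitochondrial energy supply gave no call either. Of 15 genes of pyruvate dehydrogenase and the tricarboxylic acid cycle, 8 were higher and 7 lower at 2 hr against control (median 0.04), and 4 higher and 11 lower at 1 hr (median -0.19). Pdp1, the phosphatase that switches pyruvate dehydrogenase on, had the smallest p at 2 hr (-1.39 ± 0.638), followed by Suclg1, a subunit of succinyl-CoA ligase (-0.34 ± 0.245). Pdk1, a kinase that switches pyruvate dehydrogenase off, differed by -0.75 ± 0.411 at 1 hr and Idh3g, a subunit of isocitrate dehydrogenase, by -0.56 ± 0.283. Of 24 carriers and energy-buffering genes 12 were higher and 12 lower in both comparisons with control, with medians of -0.07 at 2 hr and 0.03 at 1 hr. That list includes Atp5if1, which is also a member in complex V. Ucp1, the uncoupling protein of brown fat, differed by 0.94 ± 0.381 at 2 hr (unadjusted p = 0.0339, adjusted p = 1, limma) and by -0.67 ± 0.426 at 1 hr. Its difference at 2 hr against 1 hr was 1.61 ± 0.426 (unadjusted p = 0.00389, adjusted p = 1, limma). Slc25a20, the carnitine carrier, differed by 1.24 ± 0.549 at 1 hr (unadjusted p = 0.0484, adjusted p = 1, limma), and Slc25a14, an uncoupling protein of brain, by -0.49 ± 0.270 at 2 hr. The other 3 brown fat markers measured were lower at 2 hr. Of 11 regulators of respiratory genes 4 were higher and 7 lower in both comparisons (medians -0.10 and -0.02). Thrb, a thyroid hormone receptor, differed by -1.46 ± 0.392 at 1 hr (unadjusted p = 0.00412, adjusted p = 1, limma) and by 1.36 ± 0.392 at 2 hr against 1 hr (unadjusted p = 0.00634, adjusted p = 1, limma). The transcription factor Creb1 differed by 0.65 ± 0.509 at 1 hr. Sp1, another transcription factor, differed by -0.54 ± 0.450 at 2 hr and Polg2, the accessory subunit of the mitochondrial DNA polymerase, by -0.27 ± 0.231. The ribosomal list had 15 higher and 30 lower at 2 hr (median -0.11) and 27 higher and 18 lower at 1 hr (median 0.04).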

How the data were processed

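The table deposited by the authors holds linear intensity values of 8799 probe sets on 8 arrays of rat whole-brain RNA. Neither labels nor headers name the software or scaling behind them. Columns were used as deposited, since their 2% trimmed means differed by at most 0.106%. The 59 control probe sets were left out, values were floored at the 20th percentile (intensity 9.1, log2 3.19), and 7770 probe sets above it on at least 2 arrays were tested while 970 were removed. The floor understates differences of dim probe sets. Symbols came from the platform's annotation, updated by gene number to RefSeq GRCr8. limma 3.58.1 in R 4.3.3 (lmFit, contrasts.fit, eBayes with an intensity trend) fitted 1 mean per group over all 8 arrays, two-sided, with Benjamini-Hochberg adjustment over all 7770 at 0.05. The procedure was tested on simulated data, with values drawn independently for each probe set. Those data held no array pattern shared between probe sets, so they do not show how small a difference could be found in these members. Errors are standard errors of the fit, and intervals are at 95% without adjustment. The number of arrays limits the precision. Named were the 3 genes per direction and comparison with the smallest p (brightest probe set), the brightest gene of each complex, tissue isoforms, genes whose probe sets differed in sign, the 2 genes per other list with the smallest p, and members whose groups did not overlap, the last and further examples after their values were seen. Members and lists were chosen with earlier results of these data known.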

Additional observations from a re-analysis of the deposited data

How the results depend on the processing

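Of 23 alternative settings, none gave a member with an adjusted p under 0.05 in limma in any of the 4 comparisons. Over all probe sets the count of calls was 0 except with no filter on dim probe sets, which gave 4 at 1 hr against control and 4 at 2 hr against 1 hr. The median difference of the members moved to -0.50 at 1 hr and -0.38 for any exposure against control with the low 5S reading as a block. At 2 hr against control it was -0.25 (67 of 100 lower) with that block and -0.15 (65 lower) with median centring, against -0.07 (54 lower). Leaving out 1 sample gave medians from -0.24 (without control replicate 1) to 0.12 (without control replicate 3) at 2 hr against control, -0.26 to 0.10 at 1 hr, -0.24 to 0.10 for any exposure and -0.21 to 0.16 at 2 hr against 1 hr. For samples of the same replicate number, the correlations of deviations between control and 2 hr were 0.106, -0.0875 and 0.286. Between control and 1 hr they were -0.331 and 0.201, and between 1 hr and 2 hr -0.0729 and 0.151. Samples of different numbers were not compared, so these values do not decide whether replicate numbers pair the samples. The replicate block gave 0 calls, with medians of -0.07 at 2 hr, 0.09 at 1 hr, -0.02 for any exposure and -0.13 at 2 hr against 1 hr. Some uncalled differences at 2 hr against control changed sign. With the 5S block they were Cox7a2l -0.16, Cox8b 0.01, Atp5f1e -0.43, Ndufb11 -0.13, Cox6c -0.27 and Ndufaf3 -0.14. A floor at the 40th percentile gave Cox8b 0.01, a pseudocount of 16 gave Ndufaf3 -0.00, and median centring gave Atp5f1e -0.07, Cox6c -0.04 and Ndufaf3 -0.08. Quantile normalization gave Ndufb8 0.21, Atp5po 0.40, Cox5b 0.35, Atp5f1d 0.05, Cox6c -0.03 and Ndufaf3 -0.07. Without 2 hr replicate 2 and 1 hr replicate 2, a setting chosen after seeing the data, Ndufb8 was 0.01, Cox4i1 0.17, Cox6a1 0.12, Cox6a2 -0.10, Atp5if1 0.12 and Ndufaf3 -0.06. Without the 3 arrays of highest top intensity Atp5po was 0.05, Cox6a2 -0.05, Cox4i2 -0.04 and Cox8b 0.11. Leaving out 1 sample gave ranges of -0.51 to 0.32 for Cox8b, -0.50 to 0.60 for Atp5f1e, -0.08 to 0.06 for Atp5f1d, -0.35 to 0.51 for Cox6c, -0.16 to 0.23 for Ndufaf3, -0.17 to 0.63 for Cox7a2l, -0.18 to 0.82 for Ndufb11, -0.70 to 0.29 for Ndufb8, -0.83 to 0.11 for Uqcr11, -0.51 to 0.38 for Atp5po, -0.11 to 0.25 for Cox6a2, -0.02 to 0.79 for Cox4i2, -0.47 to 0.16 for Cox5b, -0.63 to 0.34 for Atp5if1, -0.83 to 0.03 for Cox6b1, -2.21 to 0.17 for Cox4i1 and -1.66 to 0.12 for Cox6a1. The cause of these changes was not tested. The number of arrays and the within-group spread limit what can be seen.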
